A study of Arabidopsis thaliana with 12 samples.

Results

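Calls at the T-loop A58 site were taken from 6 tRNA-sequencing libraries of Arabidopsis seedlings as every listed site with reference base A at position 56 to 59 of a tRNA gene reference, with the leucine and serine references left out because their long variable arm moves the T-loop. This gave 1203 calls of the 2830 listed in all, on 289 of 510 references and at 291 of 1156 sites. The libraries came from 10-day-old whole seedlings of the Col-0 ecotype, 3 from wild type plants and 3 from trm5-1, a T-DNA insertion line in TRM5 (At3g56120), with no treatment in either genotype, and their replicates are numbered 2, 3 and 4. TRM5 methylates the base on the 3' side of the anticodon, far from the T-loop, and the comparison asks whether the T-loop calls are alike in the line without it. RNA of tRNA size was cut from a gel and reverse transcribed, and its reads were aligned to tRNA gene references. Each table lists the sites where a variant caller found a base other than the reference, as a genotype of 2 copies, so a call gives the base and whether it took 1 of the copies or both. No table gives read depth. A site that is not listed may have been called as the reference or not called, and less of a tRNA and less misreading of it cannot be told apart. In all lists of values below, the 3 libraries of a genotype stand in the order replicates 2, 3 and 4.

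A58 lies in the T-loop, in the conserved run that pairs with the D-loop and holds the elbow of the folded tRNA. In many eukaryotic tRNAs it carries N1-methyladenosine, which in yeast is made by the Trm6-Trm61 complex and is needed to keep the initiator tRNA stable. The methyl group sits on the edge of the base that pairs, so reverse transcriptase tends to stop there or to insert a wrong base, and the site appears in cDNA as a substitution. The tables hold the substitution and not a measurement of the modification itself.

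The T arms of the families on which the results turn are shown here, each the commonest T arm among the annotated nuclear genes of that family, with A58 in capitals and the base on its 3' side following it. They were read from the RefSeq genome sequence and annotation of assembly TAIR10.1, and each of the 1203 calls had A at the same position of at least 1 annotated gene of its family.
tRNA-Lys-(CTT), 16 of 17 genes, for example AT1G01890 at chr1:309275-309347, minus strand: gtgggttcgAgccccac
tRNA-Glu-(CTC), 13 of 13 genes, AT1G29210 at chr1:10207306-10207378, minus strand: ccgggttcgAgtcccgg
tRNA-Gly-(TCC), 12 of 12 genes, AT1G08240 at chr1:2588525-2588596, plus strand: ccgggttcgActcccgg
tRNA-Gln-(TTG), 7 of 8 genes, AT1G21420 at chr1:7499733-7499804, minus strand: ctgggttcgActcccgg
tRNA-Thr-(AGT), 10 of 10 genes, AT1G49280 at chr1:18230479-18230552, minus strand: ttgagttcaActctcaa
tRNA-Arg-(CCT), 6 of 8 genes, AT1G49690 at chr1:18387802-18387874, plus strand: gtaggttcgAcccctac
tRNA-Asn-(GTT), 7 of 16 genes, AT1G69300 at chr1:26049478-26049551, plus strand: ggaggttcgAcccctcc
tRNA-Gly-(GCC), 17 of 23 genes, AT1G04320 at chr1:1159023-1159093, plus strand: ccgggttcgAttcccgg
tRNA-Pro-(AGG), 14 of 16 genes, AT1G08950 at chr1:2879303-2879374, plus strand: ccgagttcaAttctcgg
tRNA-Pro-(TGG), 43 of 45 genes, AT1G20420 at chr1:7082668-7082739, plus strand: ccgagttcgAttctcgg
tRNA-Asp-(GTC), 23 of 26 genes, AT1G03515 at chr1:877648-877719, plus strand: ccgggttcgAtccccgg
tRNA-His-(GTG), 9 of 10 genes, AT1G02600 at chr1:552640-552711, plus strand: ctgggctcgAatcccag
The arms of tRNA-Gly-(TCC) and tRNA-Gly-(GCC) differ only in the base next to A58. The commonest arm of tRNA-His-(GTG) starts its T-loop with another base than T.

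A58 falls at different positions of the references because tRNAs differ in the length of their loops. Position 57 held 749 calls from 13 families, position 58 held 241 from 9, position 56 held 156 from 3 and position 59 held 57 from 3. Of the 1203 calls, 1195 (99.3%) were at A58 itself as located in the annotated genes. The other 8 calls belonged to 2 references. Asp-GTC-5-1 carried A56G in both copies in all 6 libraries, where positions are counted from the 5' end of the reference; this is the base before A58, and 1 of 26 annotated tRNA-Asp-(GTC) genes, AT5G32017 at chr5:11785055-11785126, has A there.
tRNA-Asp-(GTC), the T arm of AT5G32017: ccgggttcaAtccccgg
Gln-CTG-1-1 carried A58G in 1 of 2 copies in 2 libraries, at the base after A58, where 1 of 9 annotated genes has A. In the plot of calls by position, which leaves out leucine and serine, reference base A at positions 56 to 58 had more calls than any other position in both genotypes. At position 59 it had fewer than several sites in the rest of the tRNA. With leucine and serine counted, G at position 26 had 270 calls over the 6 libraries, more than A at position 58 (241) or 56 (156).

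**Figure D1:**
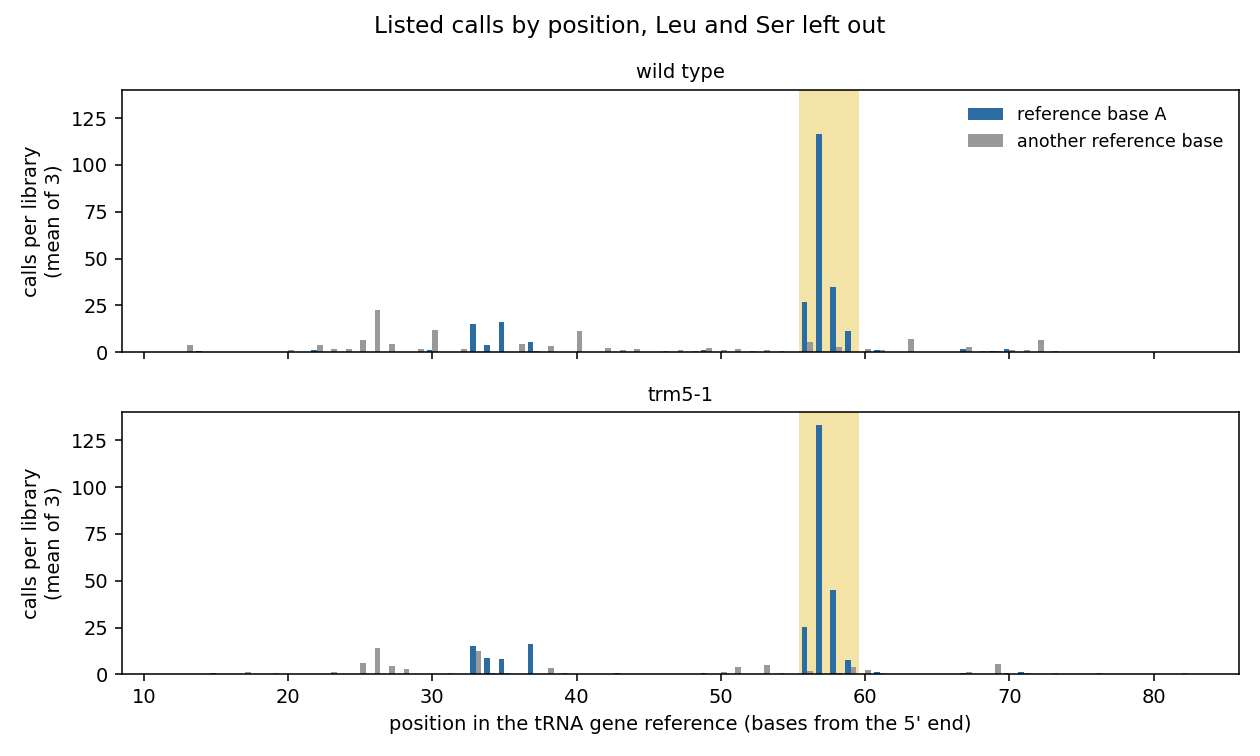
Mean number of listed calls per library (vertical axis, n = 3 libraries per genotype) at each position of the tRNA gene reference (horizontal axis, bases from the 5' end), without leucine and serine, for reference base A and for other bases; the band marks positions 56 to 59. In both genotypes the highest bar is reference base A at position 57.

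The total number of A58-site references called did not separate the genotypes. Wild type libraries had 198, 213 and 154 references with a call and trm5-1 libraries had 211, 200 and 220, and the genotypes overlapped. The means were 188 ± 30.7 and 210 ± 10.0 (SD, n = 3 each), and an exact two-sided permutation test gave p = 0.4, where 0.1 is the smallest p that 3 against 3 libraries allow. The lowest library, wild type replicate 4, also had the fewest references listed at any site (275 of a range up to 322), and the part of that difference in the result was not tested. As a share of the references listed outside leucine and serine, A58-site calls were on 76.2%, 84.9% and 65.3% in wild type, against 85.8%, 82.3% and 83.0% in trm5-1 (exact permutation p = 0.3). Counts of listed references include those listed only through their A58 call, so they do not measure detection apart from this site. Counting only A58-site references also listed at another site, the means were 68 in wild type and 64.7 in trm5-1 (exact permutation p = 0.9). The study calls its tRNA libraries biological replicates, and the labels do not say how the plants of each were grown.

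A58 sites made up a large part of all listed sites. Their share was 46.1%, 39.5% and 37.2% of listed sites in wild type, against 40.5%, 49.3% and 43.8% in trm5-1, with means of 40.9% ± 4.61 and 44.5% ± 4.45 (SD, n = 3 each; exact permutation p = 0.4). Over all of the tRNA, 2 of 115 site classes, each a reference base at a position, did not overlap between genotypes (1.74%). They were G at position 36 and A at position 68, so neither was at positions 56 to 59. Position 68 takes in A58 of tRNA-Leu-(TAA), a family that the choice of sites left out. Within a genotype, any 2 libraries shared 48.1% to 75.7% of the A58-site calls that either held (median 57.4%, 6 pairs), and libraries of different genotypes shared 28.7% to 64.5% (median 43.7%, 9 pairs). No 2 libraries were copies of each other.

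T was the usual called base. T made up 78.9%, 82.2% and 71.0% of the A58-site calls in wild type, against 80.7%, 81.6% and 74.3% in trm5-1, G made up 12.6%, 12.6% and 28.4% against 18.9%, 17.9% and 17.1%, and the rest were C or a genotype of G and T with no reference copy left. The T share had means of 77.4% ± 5.79 and 78.9% ± 3.95 (SD, n = 3 each; exact permutation p = 0.7). Both copies were taken in 59, 42 and 24 calls in wild type (29.6%, 19.6% and 15.5%), against in 45, 99 and 74 calls in trm5-1 (21.2%, 49.3% and 33.3%). These shares had means of 21.6% ± 7.28 and 34.6% ± 14.1 (SD, n = 3 each; exact permutation p = 0.2). The lowest trm5-1 value lay inside the wild type range.

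**Figure D2:**
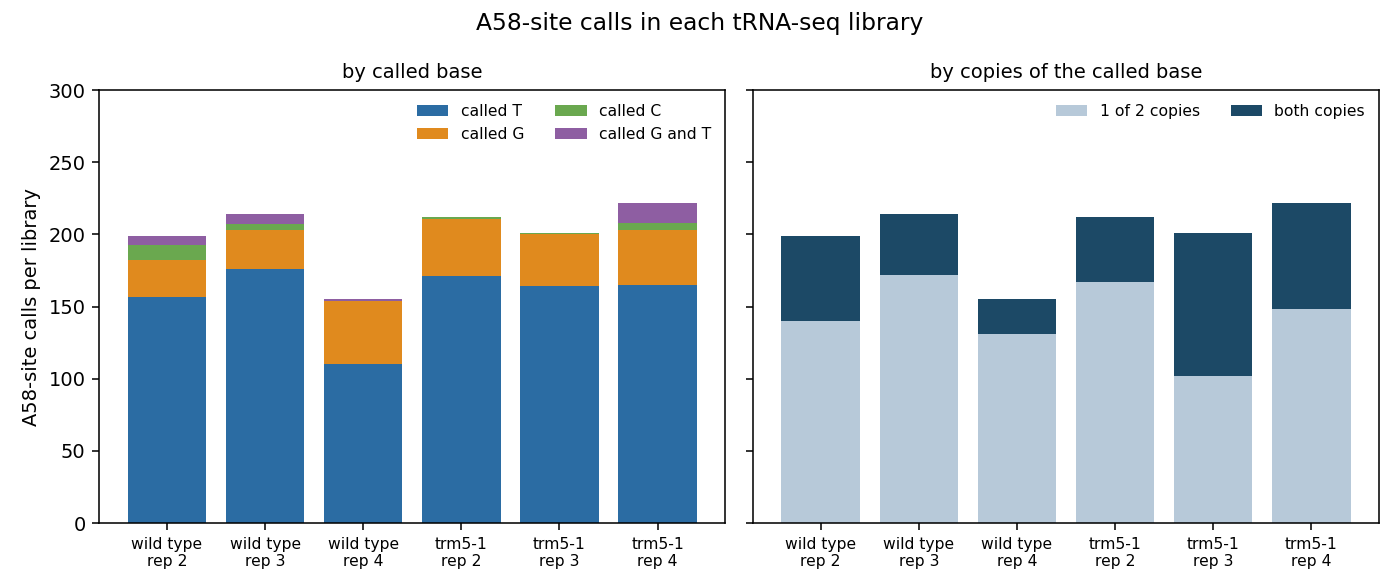
Number of A58-site calls in each library (vertical axis), split by called base on the left and by copies of the called base on the right; each bar is 1 library. The totals run from 155 in wild type replicate 4 to 222 in trm5-1 replicate 4, and T is the largest part in all 6 bars.

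The calls came from 26 families, a family being an amino acid with an anticodon, of 14 amino acids, and 331 annotated nuclear genes belong to those families. A call was present in all 6 libraries for 14 families and in only 1 library for 3. Of the 289 references, 95 were called in all 6 libraries, 137 in at least 5 and 44 in only 1. A single reference was called in all trm5-1 and no wild type library, and 3 references showed the opposite pattern. These counts are given without the same count over the whole tRNA, so they cannot be called many or few. Of the 96 sites called in all 6 libraries, 64 had 1 called base throughout, which was T at 51 and G at 13.

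References are not independent of each other. The names number each distinct mature tRNA within a family, called an isodecoder, and then its gene copies, so the copies of an isodecoder can share reads. Of the 90 isodecoders with a call, 40 had calls on at least 2 references, 239 references in all. In 171 cases such an isodecoder was called in a library, and in 161 of them (94.2%) each of its references carried the same base in the same number of copies. Counted as isodecoders, wild type libraries held 65, 57 and 44 with a call and trm5-1 libraries 57, 47 and 69 (exact permutation p = 0.8).

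tRNA-Lys-(CTT), one of the lysine acceptors, was called with a different base in each genotype. T was called on 16, 15 and 15 references in wild type, against 0, 0 and 0 in trm5-1. G was called on 0, 0 and 0 references in wild type, against 15, 15 and 15 in trm5-1. The number of references was nearly the same in the 6 libraries, and no library of either genotype held the base of the other. G thus made up 0% of the tRNA-Lys-(CTT) calls in each wild type library and 100% in each trm5-1 library (n = 3 each). The family is described for this pattern, so no test is given. Of 27 families and sites listed in all 6 libraries, over the whole tRNA, this was the only one whose genotypes shared no called base (3.7%). Of these 27, 15 were at the A58 site.

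All but 1 of the 91 tRNA-Lys-(CTT) calls were on isodecoder 2, whose 15 references moved as a block, and all of these took 1 of 2 copies. The annotation holds 17 genes with 3 distinct sequences, and 15 of them are identical. Those 15 genes are represented by AT1G01890, 73 bases, shown whole with A58 in capitals at position 58.
tRNA-Lys-(CTT), AT1G01890, chr1:309275-309347, minus strand: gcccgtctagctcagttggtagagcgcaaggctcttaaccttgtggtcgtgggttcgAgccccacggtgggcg
The remaining call, on Lys-CTT-3-1, took T in both copies in wild type replicate 2. At another site of the same references, G26T was listed on 15, 0 and 15 references in wild type, against 0, 0 and 0 in trm5-1, so wild type replicate 3 was at the trm5-1 value there while its A58 call was T. tRNA-Lys-(TTT), the other lysine family, had no A58-site call in any library. It was hardly listed at all, with 1 site of 1 reference in wild type replicate 3, so it gives no contrast.

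tRNA-Pro-(AGG) and tRNA-Pro-(TGG) had more both-copy calls in every trm5-1 library than in any wild type library, with the same called base. Every call in tRNA-Pro-(AGG), tRNA-Pro-(TGG) and tRNA-Pro-(CGG) was T. For tRNA-Pro-(AGG), 15, 15 and 15 references were called in wild type, against 15, 15 and 14 in trm5-1, but both copies were T on 0, 0 and 0 of them in wild type, against 4, 4 and 14 in trm5-1. For tRNA-Pro-(TGG), the family with the most references, 9, 43 and 8 were called in wild type, against 43, 43 and 43 in trm5-1, with both copies T on 1, 1 and 0 against 9, 42 and 8. Neither family's both-copy counts overlapped between genotypes. Of 21 families and positions with a both-copy call at the A58 site, these were the 2 without overlap (9.52%), against 4.41% of 68 such families and sites over the whole tRNA. The 68 include the 21 and are no separate background for them. A lack of overlap needs both-copy calls in every library of a genotype. How many of either set had them was not counted, so the shares show no excess.

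By isodecoder, the difference in copies lay in part of the proline tRNAs. The 4 references of Pro-AGG-1 and the 8 references of Pro-TGG-1 took T in 1 of 2 copies in all 3 wild type libraries and in both copies in all 3 trm5-1 libraries. The 34 references of Pro-TGG-2 were called together in wild type replicate 3 and in all trm5-1 libraries, were not listed at the site in wild type replicates 2 and 4, and took both copies only in trm5-1 replicate 3. The 9 references of Pro-AGG-2 took T in 1 of 2 copies in all libraries except trm5-1 replicate 4, where they took both. Pro-TGG-4 went the other way in part, with both copies in wild type replicates 2 and 3 and in trm5-1 replicate 2, and 1 of 2 copies in the other trm5-1 libraries. Of 39 isodecoder sites listed in all 6 libraries over the whole tRNA, 4 had no base-and-copy call in common between genotypes (10.3%). Lys-CTT-2, Pro-AGG-1 and Pro-TGG-1 were 3 of those 4, and 23 of the 39 were A58 sites. The share over the whole tRNA thus rests mostly on A58 sites and is no separate background for them.

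tRNA-Pro-(CGG) did not share the pattern. It was called on 4, 4 and 4 references in wild type, against 3, 5 and 4 in trm5-1, with both copies on 4, 1 and 4 against 0, 5 and 1.

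**Figure D3:**
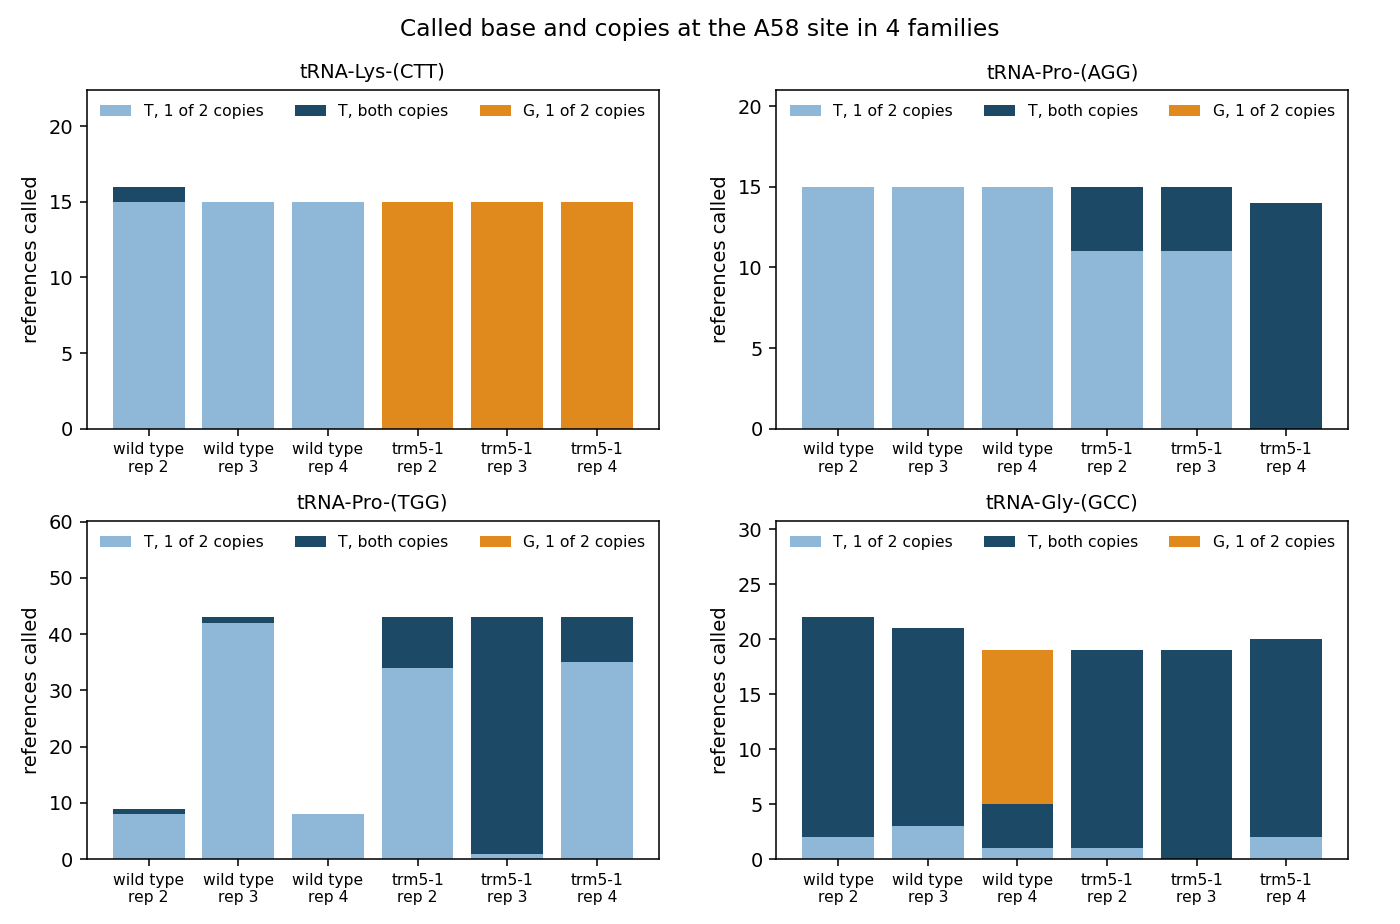
Number of references called at the A58 site in each library (vertical axis) for 4 families, split into T in 1 of 2 copies, T in both copies and G in 1 of 2 copies; each bar is 1 library. tRNA-Lys-(CTT) is T in the wild type bars and G in the trm5-1 bars, both-copy T of tRNA-Pro-(AGG) is confined to trm5-1 bars, and G of tRNA-Gly-(GCC) is confined to wild type replicate 4.

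The called base went in part with the base on the 3' side of A58, a feature the choice of sites did not use. T led with T or A next to A58, and G led with C next to it. The reference names could not be matched to single genes, so this was read by family. The 22 families used are those in which at least 80% of the annotated genes with A58 located share that base. This left out tRNA-Arg-(CCG), tRNA-Arg-(TCT), tRNA-Asn-(GTT) and tRNA-Gln-(CTG). Of these, tRNA-Asn-(GTT) has C next to A58 in 75% of its genes and was called C on 12 of 15 occasions. In the 13 families with T next to A58, 744 of 759 calls were T (98.0%), and the most frequent call was T in each family. In the 4 families with C next to A58, 118 of 140 calls were G (84.3%), 9 were C and 8 were T (5.71%). Of the G calls, 72 were of tRNA-Gly-(TCC) alone. G led in 3 of these families, and tRNA-Arg-(CCT) was called C on all 9 occasions. In the 3 families with A next to it, 81 of 88 calls were T (92.0%). In the 2 families with G next to it, tRNA-Lys-(CTT) and tRNA-Glu-(CTC), 70 of 130 calls were T (53.8%), 45 were G and 14 were a genotype of G and T. All 45 G calls were of tRNA-Lys-(CTT). These shares are a description over families, whose calls share libraries and, within an isodecoder, reads.

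By library, the T share with T next to A58 was 100%, 100% and 83.5% in wild type, against 100%, 100% and 100% in trm5-1. With C next to it the T share was 0%, 13.04% and 20.0% against 0%, 0% and 0%. With G next to it, where tRNA-Lys-(CTT) supplies most of the calls, it was 85.7%, 82.6% and 94.1% against 16.7%, 44.4% and 8.33%. With A next to it the T share was 100%, 37.5% and 77.8% against 100%, 100% and 100%, and in wild type replicate 3 G led, with 5 of 8 calls.

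**Figure D4:**
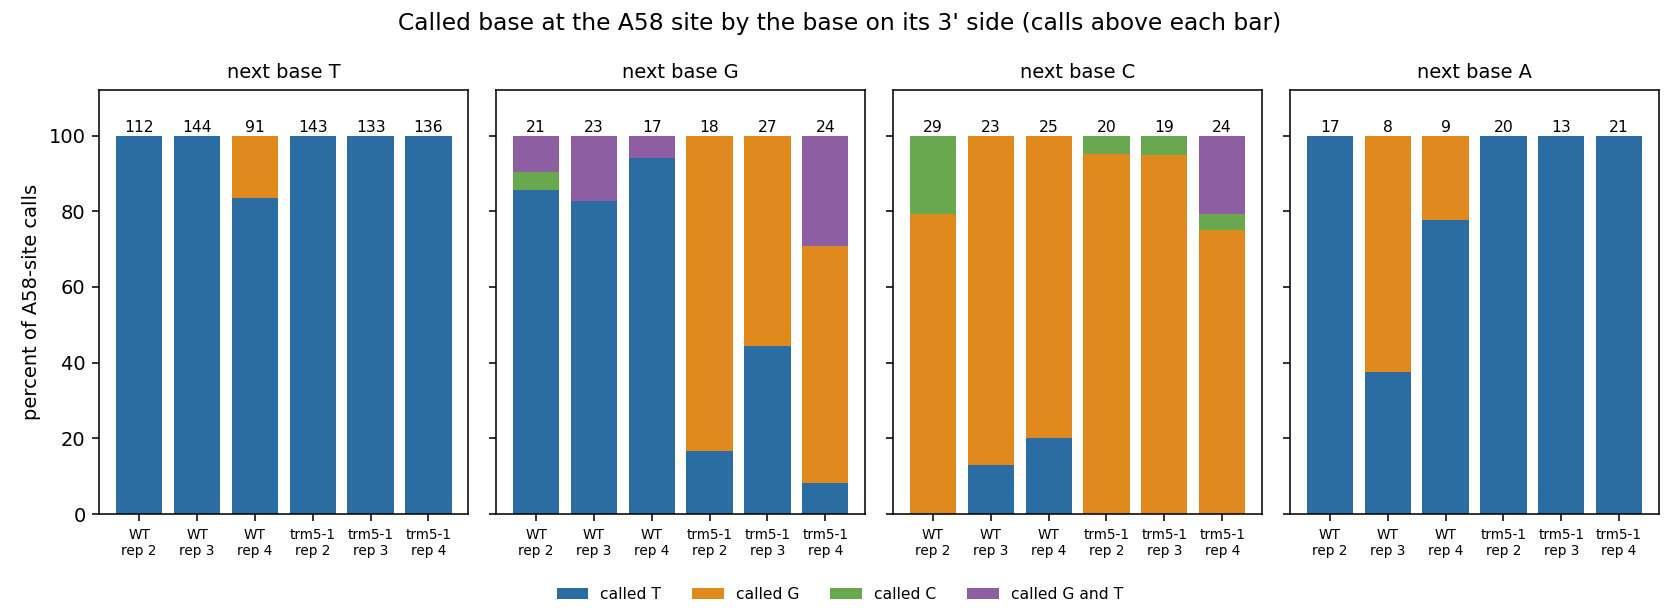
Percent of A58-site calls with each called base (vertical axis) in each library, in separate panels by the base on the 3' side of A58 in the family's annotated genes; the number of calls stands above each bar. T fills nearly all of the bars where the next base is T, and G leads in all bars where it is C. Where it is G, T leads in the wild type bars and G in the trm5-1 bars. All of those G calls are of tRNA-Lys-(CTT), and tRNA-Glu-(CTC) had 0 calls of G alone.

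tRNA-Gly-(TCC) and tRNA-Gln-(TTG) were called G throughout. tRNA-Gly-(TCC) was called G in 1 of 2 copies on 12 of 12 references in each of the 6 libraries. tRNA-Gln-(TTG) was called G on 6, 6 and 6 references in wild type, against 0, 6 and 1 in trm5-1. It had no reference listed at any site in trm5-1 replicate 2, but no library listed the family at a site other than A58. tRNA-Thr-(AGT) was mostly G, on 5, 2 and 2 references in wild type, against 7, 0 and 5 in trm5-1, with T on 0, 3 and 5 against 0, 0 and 0 and a genotype of G and T on 5 references of trm5-1 replicate 4. All 3 families have C next to A58.

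C was called mainly in families in which more than 1 C follows A58. tRNA-Arg-(CCT) was called C on all 9 occasions, 6, 0 and 0 in wild type, against 1, 1 and 1 in trm5-1. tRNA-Asn-(GTT) was called C on 4, 4 and 0 references against 0, 0 and 4, all on isodecoder 4, and its single reference of isodecoder 8 was called G in 1 library of each genotype and T in both copies in trm5-1 replicate 4. The only other C call was on 1 tRNA-Glu-(CTC) reference in wild type replicate 2.

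The glycine families with T next to A58 were called T, mostly in both copies. tRNA-Gly-(CCC) was T in both copies on 5 of 5 references in each of the 6 libraries. tRNA-Gly-(GCC) was called on 22, 21 and 19 references in wild type, against 19, 19 and 20 in trm5-1, with both copies on 20, 18 and 4 against 18, 19 and 18. Wild type replicate 4 stood apart here: the 14 references of its isodecoder 2 were G in 1 of 2 copies, and in the other 5 libraries the same references were T in both copies. tRNA-Glu-(TTC) was T on 10 references in each library, with both copies on 2, 1 and 1 in wild type, against 1, 8 and 5 in trm5-1.

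By amino acid, 4 of 14 did not overlap between genotypes in the number of references called, and no adjusted p could pass 0.05 with 3 against 3 libraries. Of the 14 amino acids tested, histidine was higher in every trm5-1 library than in any wild type library, and arginine, aspartate and glutamine were lower. Each of these had an exact two-sided permutation p = 0.1, the smallest possible, and a Benjamini-Hochberg adjusted p = 0.35 over the 14. Over the whole tRNA, 6.56% of 183 amino acid and site classes did not overlap. Such a class is an amino acid with a reference base at a given position, whereas the 14 counts pool the A58-site positions of an amino acid. The units differ, and both sets keep classes listed in too few libraries to lack overlap. No excess at the A58 site can therefore be read from this share. The values were 3, 1 and 6 against 10, 9 and 10 references for histidine (means 3.33 ± 2.52 and 9.67 ± 0.577, SD, n = 3 each) and 11, 3 and 3 against 2, 2 and 2 for arginine. They were 25, 24 and 25 against 23, 23 and 3 for aspartate and 15, 14 and 15 against 8, 13 and 10 for glutamine.

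By family, 4 of 28 families and positions at the A58 site did not overlap in references called (14.3%), against 7.58% of 211 families and sites over the whole tRNA. The classes of the whole tRNA include those at the A58 site. A class can lack overlap only if it is listed in every library of a genotype. How many classes of either set were listed so was not counted, so no excess at the A58 site can be read from these shares. tRNA-His-(GTG) accounted for the histidine values, and its calls were T except on His-GTG-2-1 in wild type replicate 3, which was G; the same reference was the family's only both-copy call, in trm5-1 replicate 3. tRNA-Ala-(TGC) was called T on 1, 0 and 0 references in wild type, against 2, 2 and 10 in trm5-1. tRNA-Arg-(TCT) was called on 4, 2 and 2 against 0, 1 and 0, with T on all but Arg-TCT-4-1 in wild type replicate 4 and Arg-TCT-7-1 in trm5-1 replicate 3, both G in both copies.

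tRNA-Asp-(GTC), a substrate of TRM5 at its anticodon loop in yeast, had T at A58 itself on 25, 24 and 24 references in wild type, against 23, 23 and 3 in trm5-1. The low value of trm5-1 replicate 4 came from isodecoder 2, whose 21 references were called T in each of the other 5 libraries and had no A58 call in this one. Only 4 tRNA-Asp-(GTC) references were listed at any site there, against 23 to 26 elsewhere, but these counts include the A58 calls themselves. At sites other than the A58 site, 5, 4 and 3 references were listed in wild type, against 2, 3 and 3 in trm5-1. Without that library the trm5-1 values differed from wild type by 1 or 2 references. Asp-GTC-1-1 was T in both copies in wild type replicate 2 and G in both copies in wild type replicate 4. Counted by called base, 6 of 42 families and bases at the A58 site did not overlap (14.3%), against 6.56% of 244 over the whole tRNA. The limits given above, on the shared classes and on which classes can lack overlap, hold for these shares too. Both tRNA-Lys-(CTT) bases and T of tRNA-His-(GTG), tRNA-Ala-(TGC), tRNA-Arg-(TCT) and tRNA-Asp-(GTC) made up these 6.

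**Figure D5:**
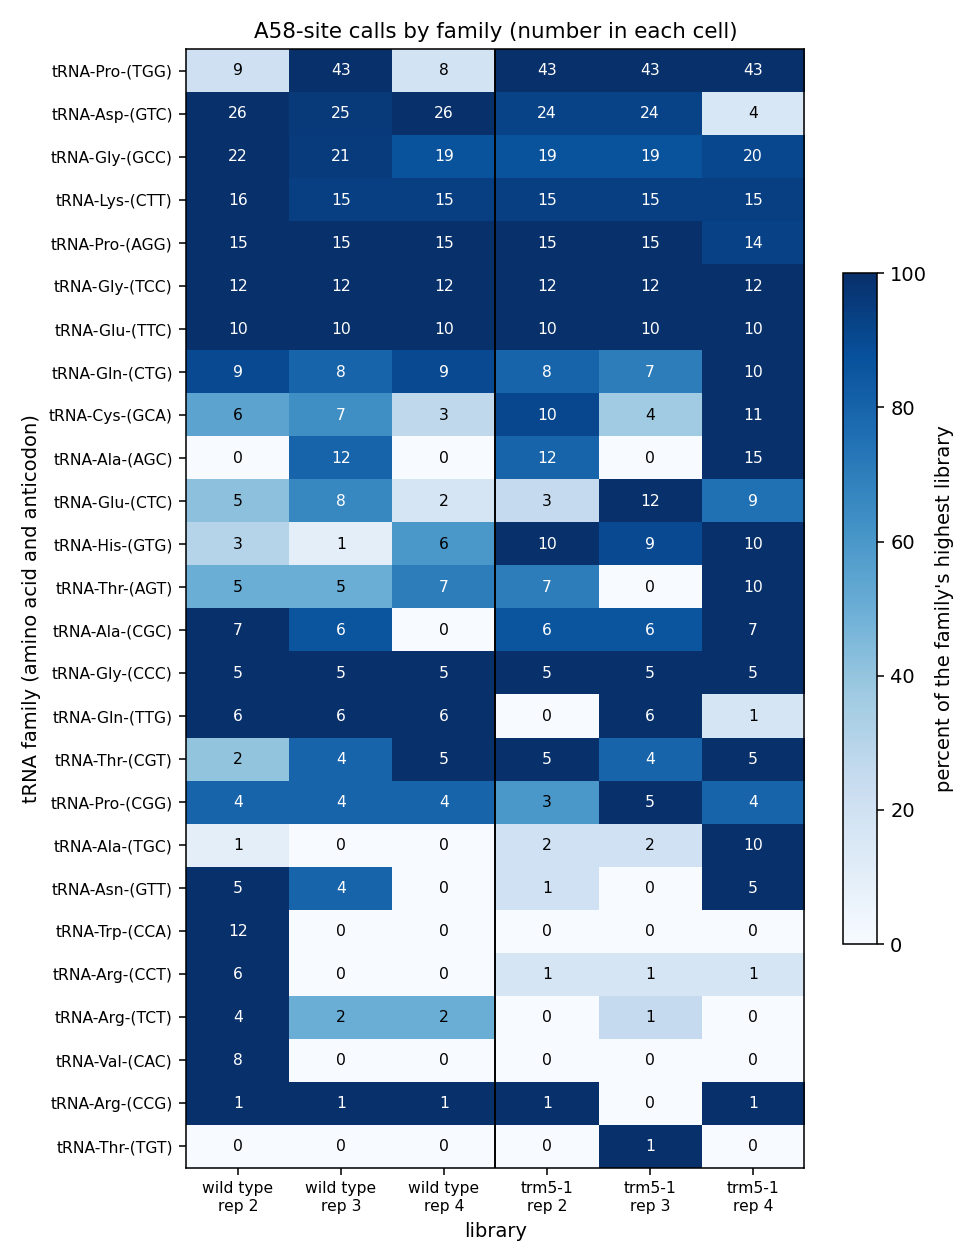
Number of A58-site calls (the digits in the cells) for each of 26 families (rows, ordered by total) in each library (columns); the shade gives the percent of that family's highest library. tRNA-Gly-(TCC), tRNA-Glu-(TTC) and tRNA-Gly-(CCC) are filled alike in all 6 columns, and tRNA-Trp-(CCA) and tRNA-Val-(CAC) hold calls in wild type replicate 2 only.

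Several families were called with more than 1 base in the same library. tRNA-Gln-(CTG) was called on 9, 8 and 9 occasions in wild type, against 8, 7 and 10 in trm5-1, as T on 5, 4 and 4 against 4, 6 and 4, as G on 0, 1 and 5 against 4, 1 and 4, and as G and T together on 4, 3 and 0 against 0, 0 and 2, the calls of Gln-CTG-1-1 beside A58 included. Its isodecoder 5, with 4 references, was T in all 6 libraries. Among its annotated genes no base next to A58 reaches the 80% share, and 4 of 9 have G there.

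tRNA-Glu-(CTC) was T on 2, 4 and 1 references in wild type, against 3, 12 and 2 in trm5-1, and G and T together on 2, 4 and 1 against 0, 0 and 7. tRNA-Cys-(GCA) was called on 6, 7 and 3 references in wild type, against 10, 4 and 11 in trm5-1, as G on 0, 4 and 2 against 0, 0 and 0, and otherwise as T. G was thus seen for tRNA-Cys-(GCA) in 2 wild type libraries and in none of trm5-1, and the genotypes overlapped because wild type replicate 2 had none.

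The alanine families varied from library to library. tRNA-Ala-(AGC), whose wobble adenosine is edited to inosine, was called T in 1 of 2 copies on 0, 12 and 0 references in wild type, against 12, 0 and 15 in trm5-1. In the 3 libraries with no such call, no tRNA-Ala-(AGC) reference was listed at any site. tRNA-Ala-(CGC) was called T on 7, 6 and 0 against 6, 6 and 7 references, with both copies on 6, 6 and 0 against 1, 6 and 6, although 5 of its references were listed at other sites in wild type replicate 4.

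The remaining families were all called T. tRNA-Thr-(CGT) had 2, 4 and 5 references in wild type, against 5, 4 and 5 in trm5-1, and tRNA-Arg-(CCG) had at most 1 per library. tRNA-Trp-(CCA) on 12 references and tRNA-Val-(CAC) on 8 were called in wild type replicate 2 only, and tRNA-Thr-(TGT) on 1 reference in trm5-1 replicate 3 only.

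Not every family with A58 at positions 56 to 59 was called there. In 9 such families with 99 annotated genes, among them tRNA-Phe-(GAA), tRNA-Lys-(TTT), tRNA-Ile-(AAT), tRNA-Val-(AAC) and the initiator tRNA-iMet-(CAT), no A58-site call was listed in any library. These families had 146 calls at other sites on 60 references over the 6 libraries, for example 33 for tRNA-Ile-(AAT), 26 for tRNA-Ile-(TAT) and 12 for tRNA-iMet-(CAT), 2 in each library. Several have T next to A58, as does tRNA-Arg-(ACG), which had 15 calls at other sites. That base alone thus did not separate called from uncalled families. tRNA-Lys-(TTT) also has T there, but it had only 1 call at another site. Since the tables hold no depth, no limit can be put on a substitution there.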

How the data were processed

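The 6 tRNA-seq tables hold other values than read counts: per the file headers, each lists sites with their alleles and the copies of each allele in a genotype of 2 copies. The authors trimmed reads with Trim Galore 0.4.2, aligned them with segemehl to tRNA gene references from GtRNAdb (TAIR10), called variants with HaplotypeCaller of GATK 3.7 with hard filtering, and deposited the allele copies as written by vcftools. A diploid caller reports a genotype, not the share of misread reads, and only sites past its filters are listed. Depth is not given in the tables, so no interval for counting error was computed, and the number of libraries limits the precision. Leaf mRNA tables of the series were not used here.

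Samples were grouped by their titles. The sites, members and lists were chosen with earlier results of these data known. A58 was located in the 625 nuclear tRNA genes of RefSeq TAIR10.1 as the A of TCRA with 15 bases on its 3' side; coordinates are of that assembly and are 1-based. Families named with values in every library were the 10 with the most calls, those without overlap between genotypes and those with a called base other than T. tRNA-Ala-(CGC), tRNA-Gly-(CCC), tRNA-Pro-(CGG), tRNA-Thr-(CGT), tRNA-Arg-(CCG), tRNA-Thr-(TGT), tRNA-Trp-(CCA), tRNA-Val-(CAC) and the families without calls were named beyond this rule after their values were seen. Groups were compared by exact two-sided permutation of library labels (Python 3.11.15, NumPy 2.4.6), tested on simulated tables, with Benjamini-Hochberg adjustment over amino acids. A class did not overlap where every library of one genotype lay above every library of the other. Classes listed in too few libraries to meet this were kept in the shares. Alternatives changed how A58 was located, the positions, the unit counted, the families included, the copies or bases counted, the replicate block and the libraries.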

Additional observations from a re-analysis of the deposited data

Results flagged for a closer look

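Calls at A58 were also listed where the rule on positions 56 to 59 did not look, in leucine and serine references and in references that hold an intron or a longer loop. A family is given here where its calls over the 6 libraries exceeded a floor of 3. The floor is a rule for listing and no statistical bound, since references of an isodecoder are not independent. tRNA-Leu-(TAA) had 11 calls, all T, on 0, 0 and 0 references in wild type and 5, 3 and 3 in trm5-1, at position 68. tRNA-Leu-(TAG) had 12 calls, 6 T and 6 G, on 0, 0 and 0 references in wild type and 6, 0 and 6 in trm5-1. tRNA-Ser-(GCT) had 13 calls, all T, on 0, 3 and 0 references in wild type and 1, 6 and 3 in trm5-1. tRNA-Met-(CAT) had 6 calls, on 0, 5 and 0 against 0, 0 and 1, and tRNA-Tyr-(GTA) had 9, on 1, 1 and 0 against 3, 4 and 0. Reference base A at position 68, which takes in tRNA-Leu-(TAA), was 1 of the 2 site classes of the whole tRNA in which the genotypes did not overlap. These families were not part of the comparison in the report.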

How the results depend on the processing

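None of the 4 comparisons over all A58-site calls passed a threshold of 0.05, which 3 against 3 libraries cannot reach, so a direction is all that an alternative could change. The difference trm5-1 minus wild type was 22 references called, 3.60 percentage points in the share of listed sites, 1.49 in the T share and 13.02 in the both-copy share. With the replicate block the differences were the same, with exact sign-flip p = 0.75, 0.5, 0.5 and 0.5 (the smallest possible is 0.25), and the numbers did not pair the libraries: deviations from the genotype means over 211 families and sites correlated at -0.029, -0.112 and -0.129 between libraries of the same number, and no library correlated best with its own number. Leaving out each library in turn gave 4.83 to 34.3 references, 1.22 to 6.18 points, -1.71 (without wild type replicate 4) to 3.93 points and 5.69 to 19.7 points, and 2 to 10 site classes without overlap against 2 with all libraries, since fewer libraries overlap less often. Classes by amino acid, base and position without overlap numbered 12.

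Without tRNA-Pro-(TGG), an alternative chosen after seeing the data, the first 3 differences turned to -1 reference, -1.50 points and -1.53 points; this family alone supplied 189 of the 1203 calls. Only references also listed at another site gave -3.33 references, families as the unit gave 0, and positions 57 and 58 alone gave -0.365 points in the T share. Without a turn in direction, A58 located only by TTCRA gave 11 references, 1.35 points in the share of listed sites and 0.020 points in the T share, adding leucine and serine gave 33.7 references and 6.05 points in the share of listed sites, families as the unit gave 0.278 points in the share of listed sites and 5.65 in the T share, isodecoders as the unit gave 2.33, and counting copies gave 53.3 copies. Without tRNA-Lys-(CTT), also chosen after seeing the data, the T share differed by 9.62 points (exact permutation p = 0.2). The both-copy share kept its direction in all 13 alternatives, between 0.180 and 19.7 points, but the replicate block among them cannot change it. The lowest value was with families as the unit, 15.9% in wild type against 16.1% in trm5-1, where the difference all but vanished. The cause of the changes was not tested.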
